A study of Mus musculus with 3 samples.

Results

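The interferon-inducible GTPases of the Gbp and Irg families were followed in B16F10, a mouse melanoma line that makes pigment, in which Med23 had been knocked down. Med23 is a subunit of Mediator, the complex that links transcription factors to RNA polymerase II. The members were the rows whose symbol was Gbp2, Gbp3, Gbp4, Gbp5, Gbp6, Gbp7, Irgm1, Irgm2, Igtp or Iigp1, and 7 of these 10 names matched a row among the 12852 genes. Gbp4, Gbp6 and Iigp1 were not analysed here. The series had 3 libraries, 1 from control cells titled siCtrl and labelled wild type, and 2 from cells labelled Med23 knockdown. All cells grew in DMEM with serum, total RNA was sequenced, and nothing in the labels says that the knockdown libraries came from separate cultures or names the siRNAs. The p-values therefore rest only on the spread between the 2 knockdown libraries, that of each gene and that pooled over all tested genes. This spread may be technical. The knockdown libraries are called first and second by their place in the table. Values are RPKM, read density per transcript length and library size, and read depth is unknown.

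Guanylate-binding proteins (Gbp) and immunity-related GTPases (Irg) are large GTPases of the dynamin type that cells make in response to interferon. They gather on membranes around intracellular bacteria and parasites, and some help to break open the enclosing vacuole or to start inflammasome signalling. Within the Irg family the Irgm proteins, to which Irgm1, Irgm2 and Igtp (also called Irgm3) belong, sit on the cell's own membranes and hold the other Irg GTPases in an inactive state. Interferon receptors act on these genes through Jak kinases, Stat factors and Irf factors. Irf factors, Irf1 and Irf9 among them, act at the interferon-stimulated response element (ISRE), and Stat dimers bind the gamma-activated site (GAS).

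The members with rows were all higher after knockdown, so the stretches before their start sites are shown, with matches to both patterns in capitals. They come from RefSeq promoter windows of build GRCm38.p6, which run from 250 bases before to 50 bases after the start site, and each stretch shown covers bases -110 to -11, 5′ to 3′ in the gene's direction. The ISRE pattern searched was GAAA repeated after a gap of any 2 bases, and the GAS pattern was TTCNNNGAA, on both strands, so that a match on the other strand reads as TTTC repeated.
Gbp2: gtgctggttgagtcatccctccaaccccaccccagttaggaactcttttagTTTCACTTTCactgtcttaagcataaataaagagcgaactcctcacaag
Gbp3: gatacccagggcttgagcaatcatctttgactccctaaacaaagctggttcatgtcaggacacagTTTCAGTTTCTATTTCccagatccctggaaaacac
Gbp7: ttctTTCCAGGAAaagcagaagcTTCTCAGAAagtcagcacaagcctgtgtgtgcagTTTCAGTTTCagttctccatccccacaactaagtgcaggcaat
Irgm1: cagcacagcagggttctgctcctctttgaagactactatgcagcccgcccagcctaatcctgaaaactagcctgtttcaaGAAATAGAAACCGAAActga
Igtp: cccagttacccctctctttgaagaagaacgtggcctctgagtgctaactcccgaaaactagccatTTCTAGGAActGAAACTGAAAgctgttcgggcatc
Irgm2: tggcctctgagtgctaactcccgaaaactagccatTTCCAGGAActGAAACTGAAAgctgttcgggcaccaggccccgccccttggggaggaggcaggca
These stretches lie at chr3:142620553-142620652, chr3:142559934-142560033 and chr3:142530226-142530325 on the plus strand, at chr11:48871431-48871530 on the minus strand, and at chr11:58199446-58199545 and chr11:58214867-58214966 on the plus strand. That build is not the mm9 build named in the submitters' processing notes. All 3 Gbp genes are on chromosome 3 and all 3 Irg genes on chromosome 11.

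An ISRE pattern was found in the windows of 6 of these 6 genes, against 3.44% of all 32851 windows. In Gbp3 it was in 1 of its 2 windows, the one shown, and there and in Irgm1 2 matches overlapped each other. The matches began 59 bases before the start site in Gbp2, 45 and 39 in Gbp3, 53 in Gbp7, 30 and 24 in Irgm1, 34 in Igtp and 64 in Irgm2. A GAS pattern was found in 3 of the 6 genes, Gbp7, Igtp and Irgm2, against 8.30% of all windows. Both patterns stood together in these 3 genes and in 0.454% of all windows. No match overlapped one of the other pattern, as the map of motif matches shows. A match is a description of the letters and does not show that a factor bound there.

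**Figure D1:**
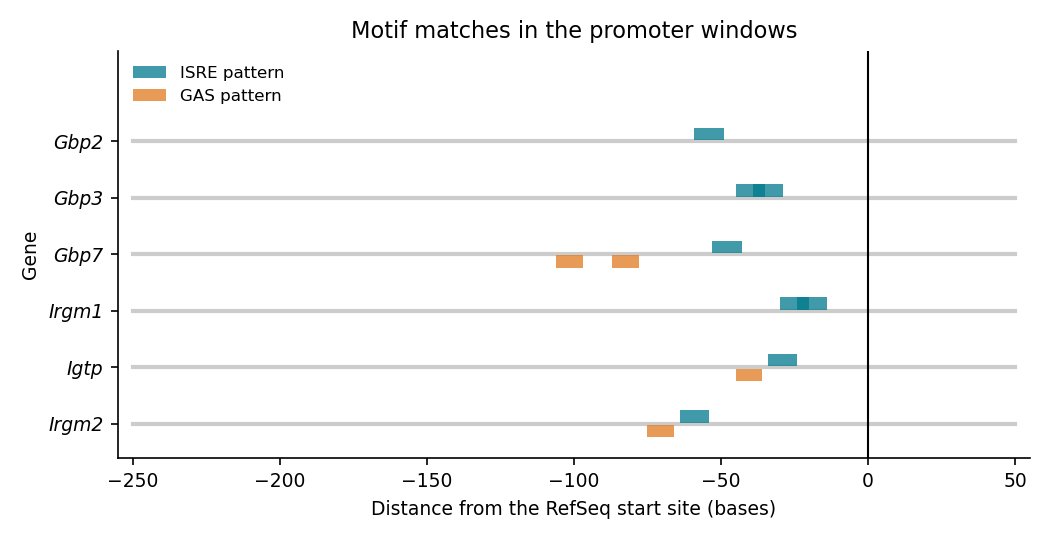
Positions of the ISRE and GAS patterns in the RefSeq windows of 6 members, as distance in bases from the start site (x axis) for each gene (y axis), with the first of the 2 Gbp3 windows drawn. Teal bars mark the ISRE pattern, present in all 6 genes within 64 bases of the start, and orange bars the GAS pattern, present in Gbp7, Igtp and Irgm2.

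The windows of Igtp and Irgm2, neighbours on chromosome 11, shared a nearly identical stretch. Set against each other with a shift of 30 bases, the whole windows matched at 184 of 270 positions (68.1%). Within them, bases -85 to 50 of Igtp matched bases -115 to 20 of Irgm2 at 132 of 135 positions (97.8%), a stretch chosen for its likeness, which holds both patterns in each gene. Their GAS matches differed at 1 base. The same sequence was placed 30 bases farther from the annotated start site in Irgm2. The last 20 bases of the Irgm2 window occur in no GENCODE M21 transcript of that gene, unlike those of the other genes shown. Whether the shift comes from the start site annotation was not tested.

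The targeted gene, Med23, stood at 1.65 and 1.61 RPKM in the libraries labelled as knockdown against 5.23 RPKM in the control. Of the 9 melanocytic marker symbols 8 had values, Mitf being the lowest and Dct the highest (2359 RPKM) in the control. All 8 were called lower after knockdown, where 24.0% of all tested genes were. Of 26 markers of leukocytes, fibroblasts, endothelium and keratinocytes, 8 had values, and 6 of these stayed below 1 RPKM in every library. Their sum measured 18.7 RPKM in the control, and 12.3 and 12.8 RPKM after knockdown, most of it Cd68, which fell from 16.9 RPKM to 10.0 and 10.1 RPKM (limma adjusted p = 0.00329). Without Cd68 the sum of the other 7 went the other way, from 1.79 RPKM to 2.30 and 2.71 RPKM. Lyz2, a lysozyme of macrophages, rose from 0.646 RPKM to 1.19 and 1.18 RPKM (limma adjusted p = 0.0305). Of the 6 untested markers, Pdgfra, Col1a1 and Tek exceeded their control value in both knockdown libraries, as 44.1% of all genes did. The other 3, the leukocyte markers Csf1r, Cd4 and Cd79a, lay below their control value in both. Csf1r, for example, went from 0.588 RPKM to 0.271 and 0.457 RPKM. All 6 stayed below 1 RPKM in every library. The part of these cell types in the members' values was not tested. Ptprc, Adgre1, Itgam and Cd3e, defining markers of leukocytes, had no value to compare. In bulk RNA fewer cells of a type and less RNA per cell cannot be told apart.

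Each of the 7 members with a row exceeded its control value in both knockdown libraries, a pattern that 44.1% of all genes showed. Summed over the 7 rows, the level went from 3.24 RPKM (control) to 47.4 RPKM (first) and 45.0 RPKM (second), 14.6 and 13.9 times the control. The members differed widely in size of change. Gbp2, Gbp3 and Igtp stood at more than 14 times their control RPKM, Irgm2 at about 1.98 times. In the control 6 of the 7 were below 1 RPKM, and the plot of member values shows the gap for each gene.

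**Figure D2:**
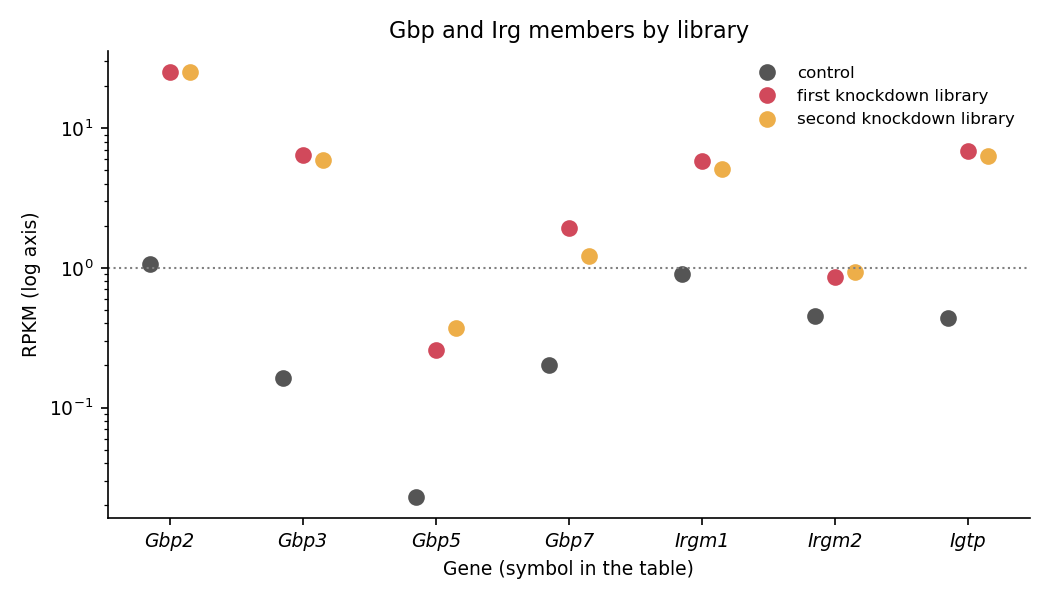
RPKM of the 7 members (x axis, symbols as in the table) on a log axis, with 1 point for each library: grey for the control, red and yellow for the first and second knockdown libraries. Each control point lies below both knockdown points of its gene, and the dotted line marks 1 RPKM, above which Gbp2 alone stood in the control.

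Tests were made on log2(RPKM + 1) with limma, over the 9722 genes whose mean reached 1 RPKM. Of the members, 5 reached that mean and all 5 were called higher, where 26.3% of tested genes were called higher and 50.3% either way. This count cannot be read as support, since Gbp3, Gbp7, Irgm1 and Igtp were below 1 RPKM in the control and entered only through their knockdown values. Of all 280 tested genes with a control below 1 RPKM, 71.8% were called higher, and any gene named here that was tested from such a control passed the filter only through its knockdown values. With no filter, 7 of 7 members were called higher, against 19.5% of 12852 genes. At least 2-fold higher in both libraries on the RPKM + 1 scale were 4 members, Gbp2, Gbp3, Irgm1 and Igtp, against 1.97% of all genes. The median log2 ratio over the 7 rows was 1.77, beside 0.00 over all 12852 genes.

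These tests take the lone control library to vary like a knockdown library, which cannot be checked. When the control SD was set to 3 times theirs, 3 members, Gbp2, Gbp3 and Igtp, were called higher, against 1.21% of tested genes. Irgm1 and Gbp7 were not, with limma adjusted p = 0.0665 and 0.282. Gbp3 and Igtp entered this fit, too, only through their knockdown values, so this count cannot be read as support either.

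Gbp2 (ENSMUSG00000028270), a guanylate-binding protein that is anchored to membranes by a lipid tail, was the most abundant member in every library. Its level stood at 1.07 RPKM in the control, and at 25.2 and 25.1 RPKM after knockdown, a mean of 25.2 ± 0.0806 RPKM (SD, n = 2). The knockdown libraries agreed closely and lay far above the control. The log2 ratio was 3.66 (SE 0.09, limma adjusted p = 7.98e-05), and the ratio of RPKM was 23.6. Within each library, where genes can be ranked, Gbp2 moved from the 25.8 percentile of all genes to the 87.1 percentile in either knockdown library. It made up 32.9% of the members' summed RPKM in the control and 53.2% and 55.8% after knockdown.

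Gbp3 (ENSMUSG00000028268), another guanylate-binding protein, had the largest ratio of RPKM among the members. It measured 0.162 RPKM in the control, and 6.41 and 5.87 RPKM after knockdown, 39.5 and 36.2 times the control. The log2 ratio on the RPKM + 1 scale was 2.62 (SE 0.12, limma adjusted p = 0.000239). That scale understates changes from such a low start, so Gbp3 ranks below Gbp2 on it and above Gbp2 by RPKM alone.

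Gbp7 (ENSMUSG00000040253), which has been linked to the oxidase and autophagy machinery in macrophages, changed less and less evenly. It stood at 0.203 RPKM in the control, and at 1.92 and 1.22 RPKM after knockdown. The first knockdown library was the higher one, and the SD of 0.496 RPKM (n = 2) was large beside the mean of 1.57 RPKM. The log2 ratio was 1.08 (SE 0.19, limma adjusted p = 0.00720), and Gbp7 passed the 2-fold limit in the first library (log2 ratio 1.28) but not in the second (0.88).

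The row with the symbol Gbp5 cannot be tied to that gene alone. It carries the ID ENSMUSG00000040264, which the GENCODE M21 annotation gives to Gbp2b, the gene once called Gbp1, while Gbp5 there has the ID ENSMUSG00000105504, for which the table gives no value. The row measured 0.0230 RPKM in the control, and 0.260 and 0.369 RPKM after knockdown, the lowest level of any member in every library. It did not reach the mean of 1 RPKM. With no filter its log2 ratio was 0.36 (limma adjusted p = 0.0217). Both genes' windows hold an ISRE pattern, 165 bases before the start in Gbp5 and 137 in Gbp2b, and Gbp5 alone of these 2 has GAS patterns.

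Igtp (ENSMUSG00000078853), the Irgm3 regulator of the endoplasmic reticulum, was the Irg member with the largest change. It stood at 0.440 RPKM in the control, and at 6.87 and 6.36 RPKM after knockdown, 15.6 and 14.5 times the control. The log2 ratio was 2.40 (SE 0.12, limma adjusted p = 0.000242). In rank it went from the 17.1 percentile of all genes to the 61.8 and 60.0 percentiles.

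Irgm1 (ENSMUSG00000046879), the Irgm regulator known for its part in autophagy and in defence against mycobacteria, measured 0.896 RPKM in the control, and 5.86 and 5.13 RPKM after knockdown. Both knockdown values lay well above the control, with a mean of 5.49 ± 0.516 RPKM (SD, n = 2). The log2 ratio was 1.77 (SE 0.13, limma adjusted p = 0.000632).

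Irgm2 (ENSMUSG00000069874), the remaining Irgm regulator, stood at 0.451 RPKM in the control, and at 0.855 and 0.931 RPKM after knockdown, 1.89 and 2.06 times the control. The knockdown libraries lay above the control but under the mean of 1 RPKM needed for the test. With no filter the log2 ratio was 0.38 (limma adjusted p = 0.0245). Igtp and Irgm2, which share the 135-base stretch around their start sites, were thus close in the control, where the ratio of Igtp to Irgm2 was 0.975, and far apart after knockdown, where it was 8.03 and 6.83. An exact permutation test of 1 library against 2 cannot go below p = 0.333, so this is a description.

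Sequence shared between family members limits how well reads could be told apart. Of all 50-base stretches in the GENCODE M21 transcripts of Igtp, 11.8% occur in another gene, all of those in Irgm2, and of those of Irgm2, 7.77% do. For Gbp7 the share was 12.7%, mostly with Gm43802, and for Gbp3 3.75%, with Gbp7. For Gbp2 it was 2.03%, with Gbp2b, and for Irgm1 0.310%, with Ncbp3, which is not a Gbp or Irg gene. The authors' handling of such reads is not given in the sources used here, so the levels of Igtp, Irgm2 and Gbp7 are the least certain.

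By level after knockdown, which RPKM allows between genes, the order was Gbp2, Igtp, Gbp3, Irgm1, Gbp7, Irgm2 and the Gbp5 row. The ranges of Igtp (6.36 to 6.87 RPKM) and Gbp3 (5.87 to 6.41 RPKM) overlapped, and the lower Gbp3 value lay just above the higher Irgm1 value of 5.86 RPKM. Gbp2 stood apart, at 3.67 and 3.95 times Igtp, the next in order. In the control the order was Gbp2, Irgm1, Irgm2, Igtp, Gbp7, Gbp3 and the Gbp5 row, and with 1 library no neighbours in it can be separated.

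**Figure D3:**
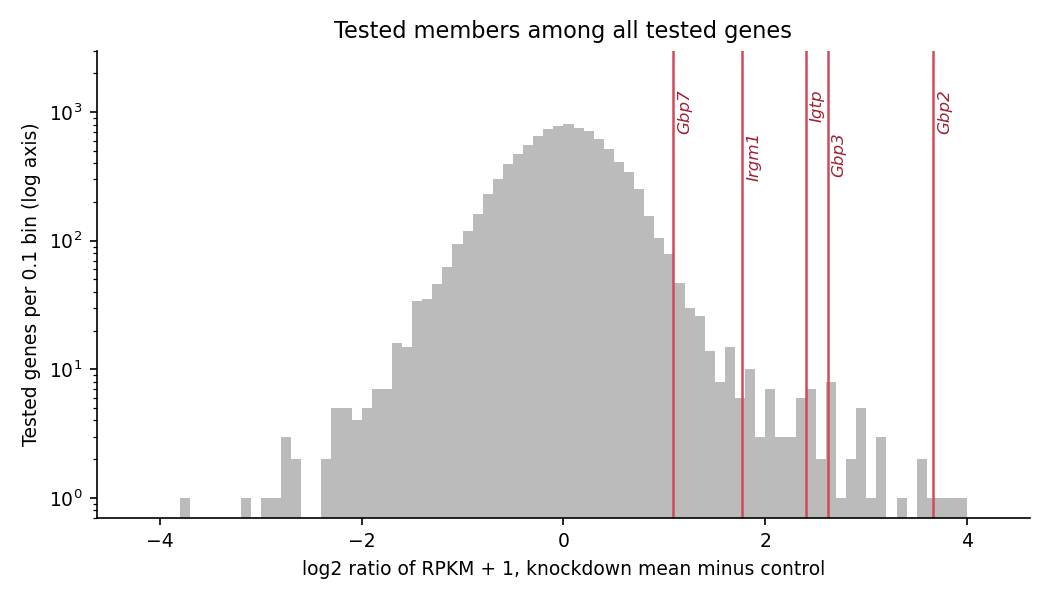
Histogram of the log2 ratio of RPKM + 1, mean of the knockdown libraries minus the control, for the 9722 tested genes (y axis: genes per bin, log axis). Red lines mark the 5 tested members, which run from 1.08 for Gbp7 to 3.66 for Gbp2 and all lie on the right-hand side.

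Other genes of these families had few values. Gm4951, an Irg gene, measured 0.0144 RPKM in the control, and 0.219 and 0.188 RPKM after knockdown. Ifi47, an Irg GTPase also known as Irgd and chosen after its values were seen, stood at 0.146 RPKM in the control, and at 0.816 and 0.533 RPKM after knockdown. Its RefSeq window holds neither pattern. Irgq, a distant relative not known as an interferon target, measured 9.41 RPKM in the control, and 7.97 and 9.72 RPKM after knockdown, so the control lay between the knockdown values (limma adjusted p = 0.623). Among 16 dynamin-related GTPases in the table, Mx1 and Mx2, the antiviral members that interferon induces, rose from controls of 0.112 and 0.209 RPKM, which passed the filter only through their knockdown values (log2 ratio 1.70, limma adjusted p = 0.00237 for Mx1, and 3.10, limma adjusted p = 0.000239 for Mx2), while Ehd3, a membrane-shaping GTPase, fell by 1.06 on the log2 scale (limma adjusted p = 0.00165). Of the 15 tested, 3 rose, 6 fell and 6 did not pass, where 26.3% of all tested genes were called higher and 24.0% lower, and the median log2 ratio was -0.28.

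Receptors and kinases of the signalling that leads to Gbp and Irg transcription came next. Of 8 tested receptor and Jak genes, limma called 1 higher and 2 lower and left 5 uncalled, where 50.3% of all tested genes were called either way, and the median log2 ratio was -0.12. Ifnar2, a chain of the type I interferon receptor, rose from 7.50 RPKM to 13.5 and 13.7 RPKM (limma adjusted p = 0.00246). Ifngr1, the binding chain of the interferon gamma receptor, fell from 2.48 RPKM to 1.63 and 1.49 RPKM (limma adjusted p = 0.0262), and the kinase Jak2, which acts at that receptor, fell from 7.80 RPKM to 5.72 and 5.51 RPKM (limma adjusted p = 0.0231). The 12 names listed as interferon ligands were not analysed here.

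Among the Stat and Irf factors, limma called 5 of 7 tested higher and 0 lower, where 26.3% of all tested genes were called higher, and their median log2 ratio was 0.83, beside 0.01 over all tested genes. Irf1, an activator of Gbp genes, rose from 6.02 RPKM to 24.1 and 24.2 RPKM (log2 ratio 1.84, limma adjusted p = 0.000239). Irf7, an activator of interferon genes, rose from 0.281 RPKM to 10.1 and 11.3 RPKM (log2 ratio 3.19, limma adjusted p = 0.000162). Irf9, the DNA-binding part of the factor complex of type I interferon signalling, rose from 0.943 RPKM to 4.88 and 5.14 RPKM (log2 ratio 1.63, limma adjusted p = 0.000601). Irf7 and Irf9 were below 1 RPKM in the control and entered the test through their knockdown values. These factors are themselves interferon targets, and the levels of mRNA do not show the activity of the proteins.

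**Figure D4:**
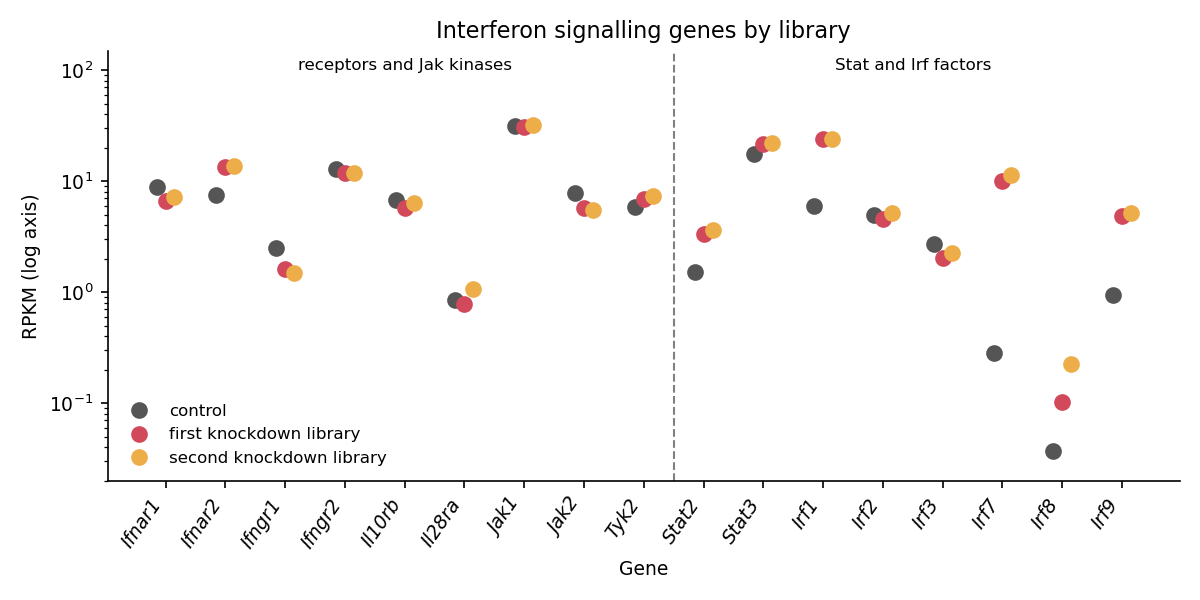
RPKM on a log axis of 9 receptor and Jak kinase genes (left of the dashed line) and 8 Stat and Irf genes (right), with 1 point for each library in the colours given in the legend. Irf1, Irf7 and Irf9 show wide gaps between the control and the knockdown libraries, whereas the points of Jak1 and Ifngr2 nearly coincide.

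Of 5 tested restraints on the pathway limma called 2 higher and 1 lower, where 26.3% of all tested genes were called higher and 24.0% lower, and the median log2 ratio was 0.26. Usp18, which blocks the type I receptor, rose from 0.496 RPKM to 23.1 and 21.3 RPKM (limma adjusted p = 7.98e-05) and was tested only through its knockdown values, and Ptpn11, a phosphatase, fell from 12.3 RPKM to 7.53 and 8.75 RPKM (limma adjusted p = 0.0153). Ptpn6, another phosphatase, was under the mean of 1 RPKM, at 1.29 RPKM in the control and 0.480 and 0.731 RPKM after knockdown.

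The counts for genes that work with the GTPases can be read against the 50.3% of all tested genes called either way. Some Gbp proteins need a prenyl group to reach membranes, and of 6 tested prenylation genes 1 rose, 1 fell and 4 did not pass. Rce1, the protease that trims prenylated tails, rose from 4.56 RPKM to 9.53 and 9.58 RPKM (limma adjusted p = 0.00191), and Zmpste24, another such protease, fell from 2.87 RPKM to 1.48 RPKM in either library (limma adjusted p = 0.00747). Fntb, the farnesyltransferase subunit, stood at 5.58 RPKM in the control, and at 6.21 and 7.06 RPKM after knockdown and did not pass. The Atg8 conjugation machinery directs Irg and Gbp proteins to vacuoles, and of its 10 genes 4 rose, 1 fell and 5 did not pass. Map1lc3a, an Atg8 protein, rose from 18.5 RPKM to 37.5 RPKM in either library (limma adjusted p = 0.000759), while Atg3 and Atg12, of the conjugation steps, rose as well (log2 ratio 0.73, limma adjusted p = 0.00429, and 0.57, limma adjusted p = 0.00653). Median log2 ratios of these lists were 0.08 and 0.07.

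Of the inflammasome partners of the Gbp proteins, 4 genes had a row and 3 were tested. All 3 tested rose, where 26.3% of all tested genes did and 71.8% of those with a control below 1 RPKM. Casp4, the caspase that senses lipopolysaccharide, rose from 0.827 RPKM to 5.93 and 4.36 RPKM (log2 ratio 1.74, limma adjusted p = 0.00167). Gsdmd, the pore-forming protein it cuts, rose from 0.421 RPKM to 1.33 and 1.68 RPKM (limma adjusted p = 0.00648), and Pycard, the adaptor, from 7.32 RPKM to 12.9 and 12.4 RPKM (limma adjusted p = 0.00345). Casp4 and Gsdmd were below 1 RPKM in the control and so entered the test through their knockdown values. Aim2, the DNA sensor upstream of Pycard, measured 0.0224 RPKM in the control, and 0.00851 and 0.0204 RPKM after knockdown, both below the control. Of 7 ubiquitin ligases and readers found at pathogen vacuoles, 1 rose, 1 fell and 5 did not pass: Ubb, a ubiquitin gene, rose from 328 RPKM to 530 and 526 RPKM (limma adjusted p = 0.000327), Sqstm1, an autophagy receptor, fell from 429 RPKM to 257 and 282 RPKM (limma adjusted p = 0.00145), and Rnf213, a ligase, stood at 2.66 RPKM in the control, and at 3.32 and 3.63 RPKM after knockdown.

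Other interferon-induced families can be set beside the Gbp and Irg members. The Oas family, sensors of double-stranded RNA, had 5 of 6 tested genes called higher and a median log2 ratio of 2.46 over its 7 rows, beside 1.77 for the Gbp and Irg rows. The Ifit list, with Ifih1 and Ifi44, had 4 of 5 called higher, 1 lower and a median of 1.48. All 7 Oas rows and the 4 higher Ifit-list genes were below 1 RPKM in the control, so those tested passed the filter only through their knockdown values, and 71.8% of all such genes were called higher. No test of the difference between families was made. Their summed levels were 2.58 RPKM in the control and 43.0 and 42.8 RPKM after knockdown for Oas. For the Ifit list they were 8.35, 21.4 and 18.6 RPKM. Most of the Ifit control sum was Ifit2, the 1 gene called lower, at 6.80 RPKM in the control and 4.97 and 4.22 RPKM after knockdown.

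The 5 tested genes outside the members whose pair of log2 ratios lay nearest to the tested members' medians (2.45 and 2.35) were Ifit3, H2-T22, Gm7676, 1810032O08Rik and Itga7, at distances of 0.0421 to 0.122. This likeness rests on 3 libraries that share 1 control. Ifit3, an interferon-induced antiviral protein, measured 0.891 RPKM in the control, and 9.58 and 8.50 RPKM after knockdown, and H2-T22, a nonclassical MHC class I gene from a family with near-identical copies, was 10.1 RPKM and then 56.5 and 56.2 RPKM. Itga7, an integrin chain, stood at 0.349 RPKM in the control, and at 5.78 and 5.98 RPKM after knockdown.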

How the data were processed

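Total RNA of B16F10 cells was extracted with Trizol and a column, and libraries followed standard Illumina methods, per the labels' protocols. The authors deposited RPKM. CASAVA 1.4, TopHat, Cufflinks and mm9 appear in the submitters' processing notes, without role or order, and the annotation, gene filter and normalization are not given in the sources used here. Once sorted, the 3 columns agreed to a relative 1e-09 at 95.3% of positions, so the RPKM had been quantile normalized before they were deposited, and each column sums to 255492 RPKM. They cannot show a change in total RNA and carry no read depth. The knockdown columns share a header cell, so they were assigned to the group and not to a sample.

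Genes whose mean reached 1 RPKM, 9722 in all, were fitted as log2(RPKM + 1) by limma 3.58.1 under R 4.3.3 (lmFit and eBayes, trend option on). Calls used Benjamini-Hochberg adjusted p under 0.05. Residual degrees of freedom numbered 1, from the knockdown pair, beside 4.37 from the prior. The step was tested on simulated data in which all 3 libraries had the same spread, so that test cannot check the lone control. The members and lists were chosen with earlier results of these data known. A gene of the lists is not reported here and was left out of their counts. Named were chiefly the members, Med23, other Gbp and Irg genes, and the 5 nearest genes by log2 ratios. Each list gave up to 3 more genes, by the smaller change of both libraries. Alternatives were another pseudocount, other filters, scalings, trend settings, control SD and fold limits, and leaving out a knockdown library. Promoter windows came from the RefSeq table for GRCm38.p6, matched by symbol. Python 3.11.15, pandas 2.3.3, numpy 2.4.6 and matplotlib 3.10.9 were used.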

Additional observations from a re-analysis of the deposited data

How the results depend on the processing

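The count of members called higher by limma was 5, and it was also 5 with a pseudocount of 0.1 RPKM and with no intensity trend. It stayed 5 with the libraries quantile normalized again and with the median log2 ratio set to 0. These 2 settings could barely change the values, which were already quantile normalized and had a median log2 ratio of 0.01. The count was 7 with no filter and 1 with a minimum mean of 5 RPKM, where only Gbp2 was left to test. It was 3 with the control SD taken as 3 times larger, where the count over all genes went from 4888 to 195. The number of members at least 2-fold higher in both knockdown libraries was 4, and 5 with a limit of 1.5-fold, 3 with a limit of 4-fold and 6 with a pseudocount of 0.1 RPKM. Leaving out a knockdown library gave 4 and 5, the difference being Gbp7. Over single members no log2 ratio changed sign, and 43 values kept their side of the threshold or moved less than the replicate SD. The 43 include the log2 ratios with a knockdown library left out, such as 0.88 and 1.28 for Gbp7. Those ratios had to move less than the SD, because each of 2 values lies nearer to their mean than their SD. For them this comparison cannot show whether leaving out a library matters. Of the other values, 2 each were gained (Gbp5 and Irgm2, with no filter) and lost (Gbp7 and Irgm1, with the larger control SD). The pseudocount of 0.1 RPKM raised the log2 ratios of Gbp7 to 2.43 and of Gbp3 to 4.57. With 1 library against 1, limma has no residual degrees of freedom, so no count of calls without a knockdown library was made. No paired analysis was possible because the control has 1 library and its label has no replicate number. Depth is unknown, so the precision of the low control values cannot be given.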

Other observations

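The ISRE pattern was also counted in the windows of other genes. Of 6986 tested genes matched to a RefSeq window by symbol, 168 were at least 2-fold higher in both knockdown libraries, and 19.6% of these had an ISRE pattern, while 3.21% of the other 6818 did. For the GAS pattern the shares were 12.5% and 7.71%. These shares include the tested members and were not tested.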
